A study of Mus musculus with 36 samples.

Results

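Keratins are the intermediate filament proteins of epithelial cells. A filament is built from pairs of 1 acidic (type I) and 1 basic or neutral (type II) keratin, so the genes are used in sets that mark the kind of epithelium. In the mammary gland the luminal cells that line the duct carry the simple keratins Krt7, Krt8, Krt18 and Krt19, and the myoepithelial cells around them carry the basal keratins Krt5, Krt14 and Krt17, while epidermis and hair follicles use sets of their own.

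The genes described here were all those whose symbol in the deposited comparison table for week 1 was Krt followed by a number, or by a number and 1 letter, with keratin-associated proteins and named pseudogenes left out. This gave 56 rows and 54 genes, of which 46 had a value among the 21650 genes of the expression table. Krt2, Krt9, Krt12, Krt13, Krt24, Krt76, Krt88 and Krt90 were not analysed here for want of a value. Krt74 was kept, although the GENCODE annotation of GRCm38 calls it a transcribed unitary pseudogene.

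RNA was sequenced from 12 groups of 3 libraries. 4T1 cells, a BALB/c mammary tumor line that carries a luciferase reporter, and Py230 cells, a line from spontaneous tumors of C57BL/6 mice with an MMTV-driven polyoma middle T transgene, were each put into the milk ducts of dams of their own strain whose pups had just been weaned. The MMTV promoter is active in mammary epithelium. Tumors were taken at 1, 3 and 6 weeks post-inoculation (w p.i.), and glands of each strain that received Matrigel without tumor cells were taken at the same weeks. Cell line and mouse strain cannot be told apart in a comparison of 4T1 with Py230 tumors, each model is 1 cell line, and the Matrigel glands measure the strain part alone. The labels number the 3 samples of a group without naming the animals, so a p-value rests on spread between samples, not on spread between known animals. That spread was estimated for each gene over all 12 groups. Libraries outside a comparison therefore bear on its p-values.

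The deposited values were scores on a log-like scale, centred on 0 in each library and measured in units of that library's SD, so a value tells how far a gene lay above or below the average gene of its library. Across the 13567 genes with an authors' mean normalized count of at least 100, 1 score unit corresponded to 2.78 log2 units of that count. Differences between groups are given in score units as mean ± SE of the difference, with p-values from limma adjusted over all 21650 genes, and a gene is called where the adjusted p was under 0.05. In these whole-tissue samples, fewer cells of a type and less RNA per cell cannot be told apart.

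Genes of the 54 lay in the clusters known for the family. On GRCm38, 27 type I genes stood at chr11:99232761-100269871 and 26 type II genes at chr15:101347444-102004482, with the type I gene Krt18 beside the latter at chr15:102028180-102032027. Per kilobase of exon, the authors' mean normalized count over all libraries was highest for Krt18 (5042), Krt19 (3548) and Krt8 (2274), followed by Krt5 (1427), Krt14 (1157) and Krt17 (407). Krt71, a keratin of the inner root sheath of the hair, came next at 389, then the epidermal Krt10 at 280, the luminal Krt7 at 248 and the hair keratin Krt25 at 224. The length was that of all annotated exons merged, with 7049 bases for Krt7, 2186 for Krt71 and 2114 for Krt10. Before division by length Krt7 (1747) stood above Krt71 (851) and Krt10 (592). Simple and basal mammary keratins thus led the list. These means are pooled over all 36 libraries, and the median score over the 36 libraries was -1.07 for Krt71, -1.54 for Krt25 and -0.35 for Krt10, against 1.08 for Krt7.

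Promoters are shown because many of the 24 hair-type keratins were high in the same libraries, as described further on. RefSeq promoter windows of 300 bases on GRCm38.p6 were at hand for 36 of the 54 genes, in 37 promoters. The motif TATAAA, searched on both strands, was present in 51.4% of the 37 keratin promoters and in 13.6% of all 32851 promoters. By class it was in 7 of 8 promoters of inner root sheath and companion keratins, 6 of 9 of hair shaft and nail, 2 of 4 of simple and 0 of 2 of basal keratins. For stratified differentiation it was in 3 of 11 and for less characterised keratins in 1 of 3. No promoter of a stress-inducible keratin was at hand. The following windows run from 60 bases before the RefSeq start to 20 bases after it, for the 7 inner root sheath keratins with an entry and then for 5 mammary keratins, with each match in capitals.
Krt25, chr11:99322932-99323011, minus strand: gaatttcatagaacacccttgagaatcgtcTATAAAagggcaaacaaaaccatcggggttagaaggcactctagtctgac
Krt26, chr11:99337946-99338025, minus strand: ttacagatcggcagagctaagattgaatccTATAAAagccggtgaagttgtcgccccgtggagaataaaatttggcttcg
Krt27, chr11:99351099-99351178, minus strand: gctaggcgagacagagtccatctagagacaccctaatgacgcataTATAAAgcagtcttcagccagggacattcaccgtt
Krt28, chr11:99374884-99374963, minus strand: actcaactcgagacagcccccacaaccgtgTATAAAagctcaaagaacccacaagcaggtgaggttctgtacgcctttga
Krt71, chr15:101743078-101743157, minus strand: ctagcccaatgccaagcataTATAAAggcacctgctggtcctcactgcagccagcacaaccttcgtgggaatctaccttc
Krt72, chr15:101786501-101786580, minus strand: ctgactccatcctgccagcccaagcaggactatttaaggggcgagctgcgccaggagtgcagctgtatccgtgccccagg
Krt73, chr15:101802341-101802420, minus strand: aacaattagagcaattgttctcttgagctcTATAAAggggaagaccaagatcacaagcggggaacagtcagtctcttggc
Krt7, chr15:101412343-101412422, plus strand: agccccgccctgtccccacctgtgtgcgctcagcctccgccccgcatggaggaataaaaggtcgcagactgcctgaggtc
Krt8, chr15:102004323-102004402, minus strand: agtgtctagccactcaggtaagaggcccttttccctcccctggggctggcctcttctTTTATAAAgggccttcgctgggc
Krt18, chr15:102028156-102028235, plus strand: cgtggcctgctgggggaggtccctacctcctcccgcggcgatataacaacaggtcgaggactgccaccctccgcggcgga
Krt5, chr15:101712886-101712965, minus strand: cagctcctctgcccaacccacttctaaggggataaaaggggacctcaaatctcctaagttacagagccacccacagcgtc
Krt14, chr11:100206011-100206090, minus strand: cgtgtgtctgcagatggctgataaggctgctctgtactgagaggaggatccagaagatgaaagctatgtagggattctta
In Krt25, Krt26, Krt28 and Krt73 the motif began 30 bases before the RefSeq start, in Krt71 40 bases and in Krt27 15 bases before it. Krt72 had its match outside the stretch shown. Krt7, Krt18, Krt5 and Krt14 had no match in their 300 bases, and in Krt8 matches on both strands overlapped at the start itself. The GENCODE gene begins at chr11:100207548 for Krt14 and at chr15:101411043 for Krt7, in both cases outside the bases searched. The windows of Krt14 and Krt7 thus lie inside the annotated gene, and its outer end was not searched. The count of 0 of 2 basal keratins includes Krt14. A match is a description of the letters and does not show a site in use.

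Some libraries stood apart in skin genes, which bears on the results that follow. The mean score over 10 epidermis and hair follicle genes that are not keratins (among them Lor, Krtdap, Tchh and Krtap3-1) was above -1 in 7 of the 36 libraries. These were 4T1 replicate 2 and Py230 replicates 1 and 3 at 1 w p.i., the C57BL/6 gland replicate 3 at 3 w p.i., and at 6 w p.i. 4T1 replicate 3, the BALB/c gland replicate 2 and the C57BL/6 gland replicate 3. Results that rest on them are given with and without these 7 libraries, a choice made after seeing the data. Without them Py230 at 1 w p.i. has 1 library, which is then assumed to vary like the other groups.

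**Figure D1:**
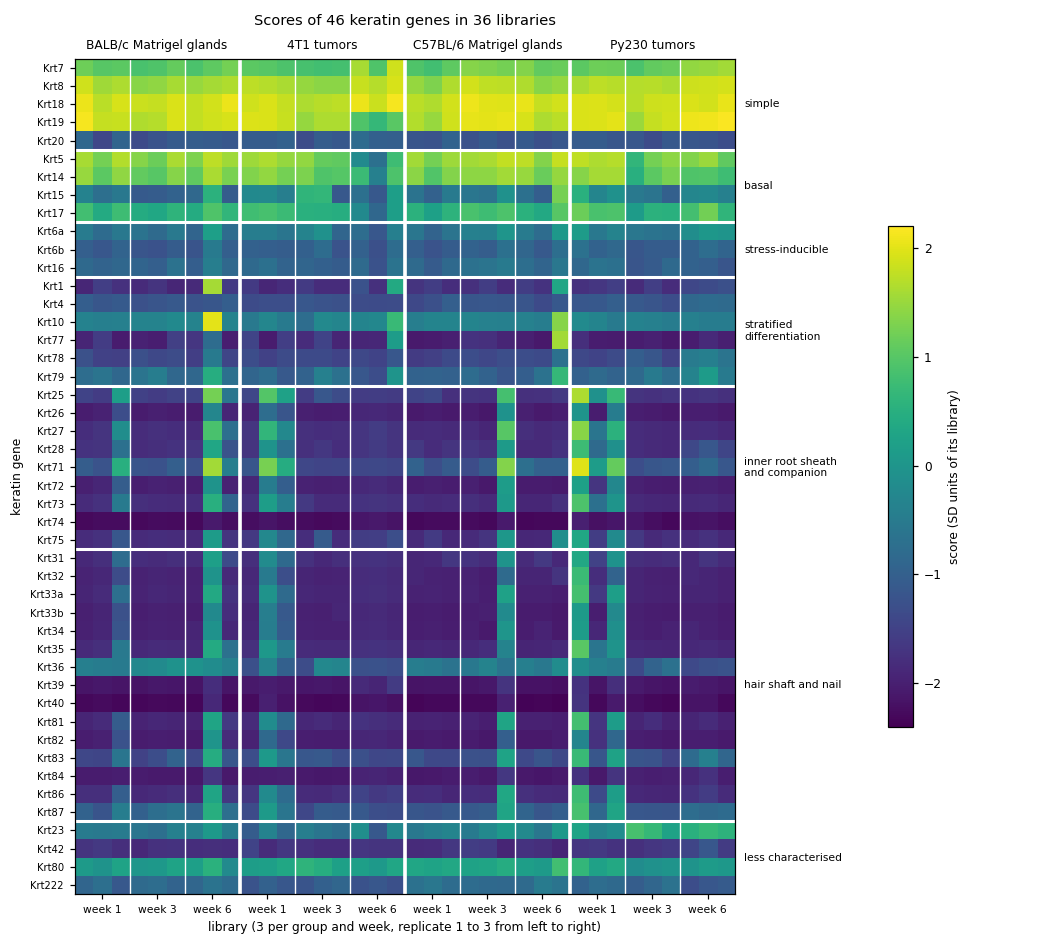
Scores of the 46 keratin genes (rows, grouped by class) in the 36 libraries (columns, 3 per group and week), colored from low (dark) to high (yellow) in SD units of the library. Krt7, Krt8, Krt18, Krt19, Krt5 and Krt14 are high in most columns, Krt5 and Krt19 are lower in the 3 columns of 4T1 tumors at week 6, and most hair-type keratins are high in single columns.

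The Matrigel glands give the level of each keratin without tumor cells. Over the 18 gland libraries Krt18 scored between 1.64 and 2.09, Krt8 between 1.31 and 1.88, Krt19 between 1.49 and 2.14 and Krt7 between 0.81 and 1.37. Basal Krt5 ran from 1.16 to 1.80 there, Krt14 from 0.95 to 1.61 and Krt17 from 0.21 to 1.00. All these genes were thus above the average gene in all 18 glands, as were the means of 8 other luminal genes (1.02 to 1.44) and of 7 other myoepithelial genes (1.18 to 1.70). BALB/c and C57BL/6 glands differed in 0 of 46 keratins at 1 w p.i. by limma, against 3.06% of all genes, and in 0 at 6 w p.i., against 3.84%, with 3 and 5 keratins at an unadjusted p under 0.05, and 1 was called without C57BL/6 replicate 3 of 1 w p.i. or BALB/c replicate 1 of 6 w p.i. At 3 w p.i. 1 keratin was called, against 3.77% called in either direction and 1.88% called lower in BALB/c. Krt8 scored 1.39, 1.43 and 1.60 in BALB/c and 1.88, 1.77 and 1.73 in C57BL/6 glands, without overlap, a difference of -0.32 ± 0.081 (adjusted p = 0.0177). That call was lost without the 7 libraries, as also without BALB/c gland replicate 1 or 2 or C57BL/6 gland replicate 1, when 0 keratins remained.

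The comparison of 4T1 with Py230 primary tumors asks how the keratins of 2 intraductal models differ at each week. At 1 w p.i. 2 of 46 keratins were called, both lower in 4T1, against 19.4% of all genes called in either direction and 8.43% called lower. The median difference was -0.26 over the 46 keratins and 0.0055 over all genes. The 24 hair-type keratins among them had mean scores of -1.76, -0.40 and -0.96 in the 4T1 and 0.25, -1.36 and -0.33 in the Py230 libraries. Krt23, a type I keratin of simple epithelia and carcinomas, scored -1.07, -0.36 and -0.86 in 4T1 and 0.27, -0.35 and -0.16 in Py230 tumors, a difference of -0.68 ± 0.22 (adjusted p = 0.0328). Krt4, a keratin of stratified internal epithelia, scored -1.34, -1.29 and -1.30 in 4T1 and -1.15, -1.13 and -1.01 in Py230 tumors, a difference of -0.21 ± 0.072 (adjusted p = 0.0382). The 4T1 libraries lay below the Py230 libraries in both genes, by less than 0.01 between the nearest values of Krt23. Neither call was kept without the 7 libraries (adjusted p = 0.216 and 0.354), and 0 keratins were called without 4T1 replicate 1 or 3 or Py230 replicate 1 or 3, while 5 were called without 4T1 replicate 2 and 4 without Py230 replicate 2.

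The main mammary keratins were close together in the 2 tumor types at 1 w p.i. Krt8 scored 1.74, 1.69 and 1.62 in 4T1 and 1.61, 1.74 and 1.70 in Py230 tumors, with a 95% interval of the difference from -0.16 to 0.17. Krt18, its type I partner, scored 1.87, 1.93 and 1.79 in 4T1 and 1.94, 1.95 and 1.90 in Py230, with an interval from -0.24 to 0.11. Values of both genes overlapped between the models. Krt19, the luminal keratin without a tail domain, scored 1.95, 1.94 and 1.82 in 4T1 and 1.94, 1.96 and 2.00 in Py230 tumors (adjusted p = 0.702). Krt7 scored 1.04, 1.01 and 0.92 in 4T1 and 1.04, 1.18 and 1.17 in Py230, without overlap by a margin under 0.01 and with adjusted p = 0.499. Basal Krt5 scored 1.53, 1.63 and 1.47 in 4T1 and 1.77, 1.63 and 1.68 in Py230 tumors, with a difference of -0.15 ± 0.24 (adjusted p = 0.700). Of 5 simple, 4 basal and 3 stress-inducible keratins, none was called at 1 w p.i., and the smallest adjusted p among them was that of Krt6b (0.406).

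The other basal and stress-inducible keratins at 1 w p.i. gave no call. Krt14 scored 1.33, 1.45 and 1.24 in 4T1 and 1.36, 1.58 and 1.58 in Py230 tumors (difference -0.16 ± 0.23, adjusted p = 0.649). Krt17 scored 0.79, 0.85 and 0.73 in 4T1 and 1.17, 0.89 and 0.92 in Py230 (difference -0.20 ± 0.19, adjusted p = 0.499). Krt15 scored -0.21, -0.23 and -0.43 in 4T1 and 0.52, -0.31 and -0.071 in Py230 (difference -0.34 ± 0.46, adjusted p = 0.644). Krt15, Krt17 and Krt6a were all highest in Py230 replicate 1, the library with the highest hair-type keratins. For Krt6a the scores were -0.46, -0.45 and -0.62 in 4T1 and 0.12, -0.56 and -0.34 in Py230 (difference -0.25 ± 0.24, adjusted p = 0.491). The differences of Krt6b, Krt16 and Krt20 were -0.17 ± 0.14, -0.085 ± 0.14 and 0.073 ± 0.11. Epidermal Krt1 scored -1.62, -1.91 and -1.80 in 4T1 and -1.74, -1.67 and -1.54 in Py230 tumors, and its partner Krt10 scored -0.54, -0.30 and -0.51 in 4T1 and -0.20, -0.32 and -0.50 in Py230. Krt79 scored -0.90, -0.76 and -1.11 in 4T1 and -0.97, -0.81 and -0.94 in Py230. None of these 3 was called, with adjusted p = 0.902, 0.876 and 0.983.

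At 3 w p.i. 3 keratins were called, 1 higher and 2 lower in 4T1, against 30.3% of all genes called, 11.9% higher and 18.5% lower. The median difference was 0.030 over the keratins and -0.011 over all genes. Krt23 scored -0.44, -0.61 and -0.74 in 4T1 and 0.85, 0.69 and 0.24 in Py230 tumors, a difference of -1.19 ± 0.22 (adjusted p = 2.50e-04). Krt8 scored 1.46, 1.40 and 1.41 in 4T1 and 1.69, 1.71 and 1.63 in Py230 tumors, a difference of -0.25 ± 0.081 (adjusted p = 0.0212). All 4T1 libraries were below all Py230 libraries in both genes. Krt80, a type II keratin found near desmosomes, went the other way, with 0.60, 0.47 and 0.21 in 4T1 and -0.16, -0.073 and -0.021 in Py230 tumors, a difference of 0.51 ± 0.15 (adjusted p = 0.0128). The 3 genes were also called without the 7 libraries, but the Krt8 call was lost in 4 of 6 fits that left out 1 library, with adjusted p from 0.0545 to 0.0723, and without Py230 replicate 1 only 1 keratin was called.

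The other luminal keratins were not called at 3 w p.i. Krt18 scored 1.63, 1.71 and 1.75 in 4T1 and 1.71, 1.85 and 1.86 in Py230 tumors (difference -0.11 ± 0.085, adjusted p = 0.335). Krt19 scored 1.47, 1.64 and 1.63 in 4T1 and 1.50, 1.79 and 1.88 in Py230 (difference -0.15 ± 0.11, adjusted p = 0.312), and Krt7 scored 0.86, 0.81 and 0.84 in 4T1 and 0.90, 1.10 and 1.14 in Py230 (difference -0.21 ± 0.13, adjusted p = 0.253). Both tumor types thus carried Krt7, Krt8, Krt18 and Krt19 above the average gene at this week.

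Basal keratins at 3 w p.i. are of interest because the study stained cytokeratin 5 as a marker of the myoepithelial layer. At this week it reported less cytokeratin 5 staining in 4T1 than in Py230 tumors. That is protein in tissue sections, whereas the values here are RNA of whole tissue. Krt5 RNA scored 1.45, 1.12 and 1.07 in 4T1 and 0.62, 1.24 and 1.41 in Py230 tumors, with a difference of 0.12 and a 95% interval from -0.37 to 0.61 (adjusted p = 0.749). Krt14, the partner of Krt5, scored 1.29, 0.93 and 0.99 in 4T1 and 0.50, 1.04 and 1.27 in Py230 (adjusted p = 0.713), and Krt17 scored 0.52, 0.50 and 0.47 in 4T1 and 0.13, 0.56 and 0.52 in Py230 (adjusted p = 0.768). The values overlapped in all 3 genes, and Py230 replicate 1 was the lowest library in each. Without that library the differences of Krt5, Krt14 and Krt17 turned from positive to negative (-0.11, -0.087 and -0.045), none of them called. Krt15, a basal keratin of epidermal and hair follicle stem cells, scored 0.61, 0.64 and -1.14 in 4T1 and -0.54, -0.63 and -0.99 in Py230 tumors (adjusted p = 0.231) and was called only without 4T1 replicate 3 (difference 1.34, adjusted p = 0.0318). Krt6a scored -0.34, -0.072 and -0.90 in 4T1 and -0.57, -0.65 and -0.70 in Py230 (difference 0.20 ± 0.24, adjusted p = 0.563). The differences of Krt6b, Krt16 and Krt20 were 0.097 ± 0.14, 0.044 ± 0.14 and 0.035 ± 0.11, none of them called. Krt79 scored -0.96, -0.39 and -0.68 in 4T1 and -0.83, -0.52 and -0.76 in Py230 tumors, Krt1 -1.62, -1.81 and -1.81 in 4T1 and -1.83, -1.55 and -1.81 in Py230, and Krt10 -0.75, -0.23 and -0.31 in 4T1 and -0.37, -0.40 and -0.46 in Py230, with overlap in all 3 genes.

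**Figure D2:**
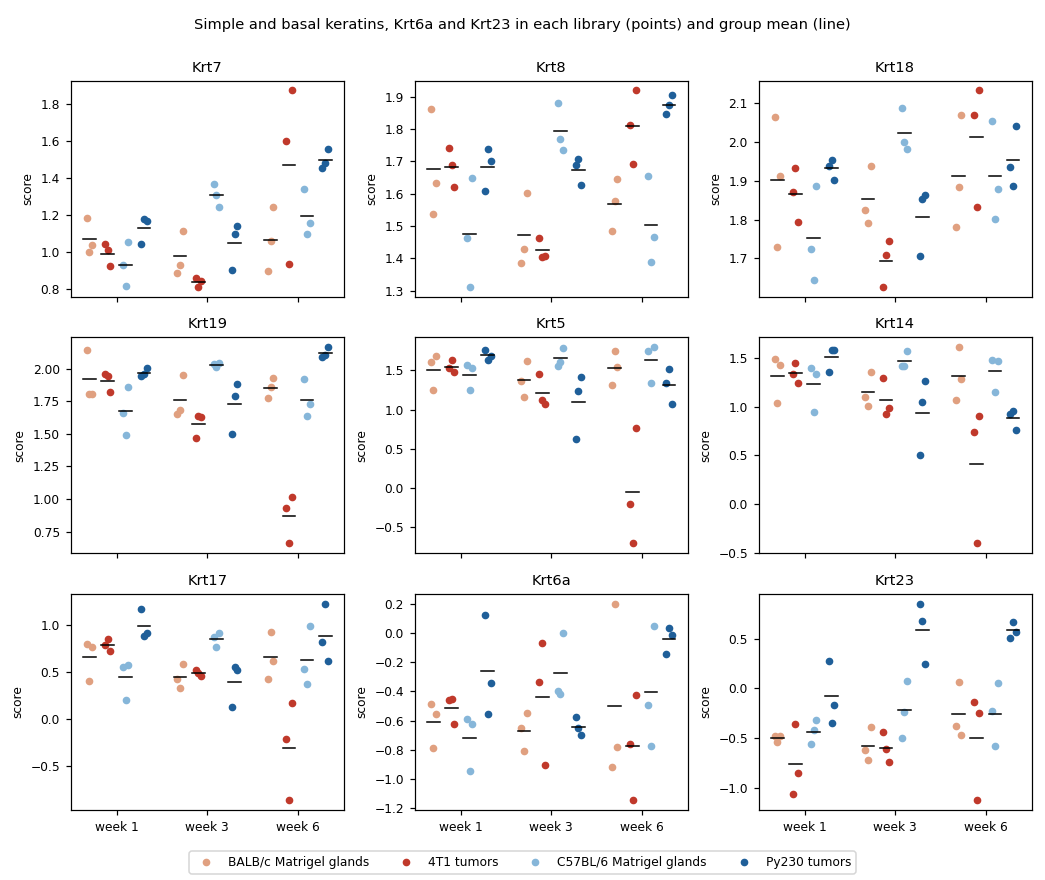
Scores of the simple keratins Krt7, Krt8, Krt18 and Krt19, the basal keratins Krt5, Krt14 and Krt17, and of Krt6a and Krt23, with 1 point per library and a line at each group mean (n = 3), by week. At week 6 the 4T1 libraries lie at 0.66 to 1.02 for Krt19, below all others, while Krt8 and Krt18 overlap between the 2 tumor types.

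At 6 w p.i. 10 of 46 keratins were called, 2 higher and 8 lower in 4T1 compared to Py230 tumors, against 40.8% of all genes called, 24.1% higher and 16.7% lower. Of the calls over all genes 59.1% were higher, and 49.0% under cyclic loess scaling, which evens out differences between libraries at each level of expression. In a fit of only these 6 libraries 24 keratins were called. The median difference was 0.058 over the keratins and 0.036 over all genes. Luminal Krt19 scored 0.93, 0.66 and 1.02 in 4T1 and 2.09, 2.10 and 2.16 in Py230 tumors, and its difference of -1.25 ± 0.11 had the smallest adjusted p of the keratins (3.52e-10). All 3 4T1 libraries were below each of the other 33 libraries of the study, which ran from 1.47 to 2.16. Basal Krt5 scored -0.21, -0.71 and 0.77 in 4T1 and 1.34, 1.51 and 1.08 in Py230 tumors, the largest difference of the called keratins with -1.36 ± 0.24 (adjusted p = 3.93e-05). Krt17, a basal keratin also induced by injury, scored -0.21, -0.86 and 0.17 in 4T1 and 0.83, 1.23 and 0.62 in Py230 tumors, a difference of -1.19 ± 0.19 (adjusted p = 1.62e-05). Both genes were lower in all 4T1 than in all Py230 libraries, with 4T1 replicate 2 lowest and replicate 3 highest of the 4T1 libraries in each. In all 13 alternative fits Krt19, Krt5 and Krt17 stayed called.

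The other basal keratins gave no call at 6 w p.i. Krt14 scored 0.74, -0.40 and 0.91 in 4T1 and 0.93, 0.96 and 0.76 in Py230 tumors, with a difference of -0.47 ± 0.23 (adjusted p = 0.103). The groups overlapped through 4T1 replicate 3, one of the 7 libraries with skin genes. Without the 7 libraries the difference was -0.72 (adjusted p = 0.0310). Krt15 scored -0.70, -1.13 and 0.19 in 4T1 and -0.29, -0.25 and -0.40 in Py230, again overlapping through that library (adjusted p = 0.725).

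The luminal keratins other than Krt19 did not share its pattern at 6 w p.i. Krt8 scored 1.81, 1.69 and 1.92 in 4T1 and 1.85, 1.88 and 1.91 in Py230 tumors, with a 95% interval of the difference from -0.23 to 0.099. Krt18 scored 2.07, 1.83 and 2.13 in 4T1 and 1.94, 1.89 and 2.04 in Py230, with an interval from -0.12 to 0.23. Krt7 scored 1.60, 0.93 and 1.87 in 4T1 and 1.46, 1.48 and 1.56 in Py230 tumors, with an interval from -0.30 to 0.25. Values overlapped in all 3 genes, and these intervals leave out a difference of the size seen for Krt19. Among the other simple keratins, Krt20, a keratin of intestinal and urothelial cells that scored far below the average gene, was called higher in 4T1, with -0.79, -0.99 and -0.999 against -1.16, -1.20 and -1.30, a difference of 0.29 ± 0.11 (adjusted p = 0.0278). That call was lost without the 7 libraries (adjusted p = 0.0640) and under cyclic loess scaling (adjusted p = 0.0536).

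Of the stress-inducible keratins, which epithelia switch on after injury, Krt6a scored -0.76, -1.14 and -0.42 in 4T1 and -0.14, 0.033 and -0.012 in Py230 tumors at 6 w p.i., a difference of -0.73 ± 0.24 (adjusted p = 0.0158). All 4T1 libraries were below all Py230 libraries, but without 4T1 replicate 2 the call was lost (adjusted p = 0.11). Krt6b scored -0.97, -1.28 and -0.77 in 4T1 and -0.95, -0.75 and -0.92 in Py230 (adjusted p = 0.489), and Krt16 -0.81, -1.24 and -0.65 in 4T1 and -0.96, -1.01 and -1.18 in Py230 (adjusted p = 0.404). Neither was called. Krt6a and Krt6b share 38.6% and 39.6% of their 75-base exon windows with other genes, most with each other, and 28.9% of those of Krt16 are shared, so reads could be split or lost between them.

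Keratins outside the mammary sets were also among the 10. Krt23 scored -0.13, -1.13 and -0.25 in 4T1 and 0.51, 0.67 and 0.57 in Py230 tumors, a difference of -1.09 ± 0.22 (adjusted p = 2.72e-04). Krt78, a type II keratin of stratified epithelia, scored -1.41, -1.48 and -1.14 in 4T1 and -0.49, -0.42 and -0.63 in Py230, a difference of -0.83 ± 0.18 (adjusted p = 4.64e-04). Krt4 scored -1.33, -1.35 and -1.33 in 4T1 and -0.85, -0.79 and -0.81 in Py230, a difference of -0.52 ± 0.072 (adjusted p = 1.65e-06). The groups did not overlap in any of the 3 genes. Krt42, a little-characterised type I keratin of low level, scored -1.68, -1.70 and -1.72 in 4T1 and -1.44, -1.14 and -1.60 in Py230 tumors, a difference of -0.30 ± 0.093 (adjusted p = 0.0101). The hair keratin Krt39 scored -1.85, -1.93 and -1.60 in 4T1 and -2.05, -2.09 and -2.13 in Py230, higher in all 4T1 libraries, with a difference of 0.30 ± 0.098 (adjusted p = 0.0162). Krt39 sat near the bottom of the scale, with an authors' mean count of 5.22. The lowest score of any gene was between -2.48 and -2.41 in the 4T1 libraries at 6 w p.i. and between -2.59 and -2.53 in the Py230 libraries. Under quantile scaling the Krt39 difference was 0.21 (adjusted p = 0.0983).

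Krt79, a keratin of hair canal and sebaceous duct, scored -1.15, -1.31 and -0.013 in 4T1 and -0.35, 0.12 and -0.53 in Py230 tumors at 6 w p.i. (difference -0.58 ± 0.33, adjusted p = 0.178). Without the 7 libraries, which removes 4T1 replicate 3, it was called with a difference of -0.98 (adjusted p = 1.74e-04). In all, 12 keratins were called without these libraries, against 35.8% of all genes, 9 of them among the 10 (all but Krt20), the others being Krt14, Krt79 and the hair keratin Krt83 (-0.66, adjusted p = 0.0269).

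**Figure D3:**
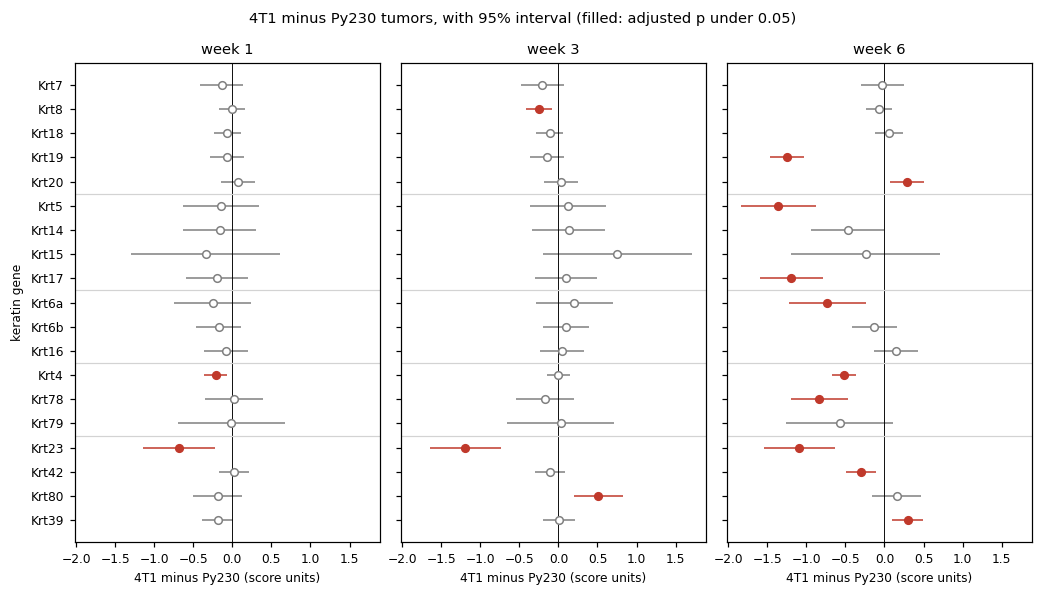
Difference of 4T1 minus Py230 tumors in score units (points) with its 95% interval (bars) for 19 keratins at weeks 1, 3 and 6 (3 libraries a group), filled red where the adjusted p was under 0.05. Krt5, Krt17 and Krt19 have intervals that span 0 at weeks 1 and 3, and their differences lie between -1.36 and -1.19 at week 6.

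Other epithelial genes moved beside the keratins at 6 w p.i. The mean score of 8 luminal genes that are not keratins ran from 0.29 to 0.70 in 4T1 and from 1.33 to 1.54 in Py230 tumors, and 5 of the 8 were called lower in 4T1, against 16.7% of all genes. Among them the luminal transcription factor Elf5 differed by -1.95 ± 0.079 (adjusted p = 3.03e-16). The mean over 7 myoepithelial genes ran from 0.16 to 0.44 in 4T1 and from 1.01 to 1.22 in Py230 tumors, and 5 of the 7 were called lower, Trp63 among them with -1.32 ± 0.12 (adjusted p = 1.31e-09). Scores have no true 0, so absence of a marker cannot be read from them. The part of these cell types in the keratin differences was not tested.

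Against the Matrigel glands of their own strain, the 2 tumor types parted at 6 w p.i. At 1 w p.i. 4T1 tumors differed from BALB/c glands in 1 keratin (Krt4, -0.21 ± 0.072, adjusted p = 0.0426), against 16.6% of all genes called and 6.72% called lower, a count that was 0 without 4T1 replicate 1 or 3 or BALB/c gland replicate 1 or 2 and 2 without 4T1 replicate 2. Without the 7 libraries Krt4 was not called (adjusted p = 0.0774) and Krt36 was (-0.66, adjusted p = 0.0490), against 18.2% of all genes. At 3 w p.i. they differed in 0 by limma, against 3.25%, with 3 at an unadjusted p under 0.05 and 1 called without 4T1 replicate 3. At 6 w p.i. they differed in 10, 3 higher and 7 lower, against 60.1% of all genes called, 38.6% higher and 21.5% lower, with a median difference of -0.46 over the keratins and 0.065 over all genes. Of the calls over all genes 64.2% were higher, and 50.6% under cyclic loess scaling. Of the 46 keratins 24 are hair-type, and their mean score was -1.78, -0.045 and -1.45 in the 3 BALB/c glands, the second of these being among the 7 libraries with skin genes. Without BALB/c gland replicate 1 the count was 16.

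Of the 10 at 6 w p.i., Krt5 scored 1.31, 1.75 and 1.54 in the BALB/c glands, a difference of 4T1 tumors from glands of -1.58 ± 0.24 (adjusted p = 3.34e-06). Krt19 scored 1.77, 1.86 and 1.93 in the glands (difference -0.98 ± 0.11, adjusted p = 2.18e-08) and Krt17 0.43, 0.93 and 0.62 (difference -0.96 ± 0.19, adjusted p = 1.48e-04). Krt14 scored 1.07, 1.61 and 1.28 in the glands, a difference of -0.91 ± 0.23 (adjusted p = 0.00133). The tumors lay below the glands without overlap in these 4 genes, so 3 of 4 basal keratins and 1 of 5 simple keratins fell. Krt7 rose by 0.40 ± 0.13 (adjusted p = 0.0117) and Krt8 by 0.24 ± 0.081 (adjusted p = 0.0129), from 0.90, 1.06 and 1.25 and 1.48, 1.58 and 1.65 in the glands. Krt7 overlapped with the glands through 4T1 replicate 2, and neither rise was called without the 7 libraries (adjusted p = 0.292 and 0.157). The remaining 4 calls were Krt36 (-1.07), Krt222 (-0.45) and Krt4 (-0.20), lower, and Krt39 (0.24), higher. Without the 7 libraries 10 keratins were called, 4 higher and 6 lower, against 47.8% of all genes. Only 7 of the 10 called with all libraries were among them. In these 4T1 tumors 6 of 7 myoepithelial, 5 of 5 adipocyte and 5 of 5 skeletal muscle genes were called lower than in the glands as well, against 21.5% of all genes called lower, the adipocyte mean running from -0.34 to -0.0074 in the tumors and from 1.66 to 1.98 in the glands. Their part in the keratin differences was not tested.

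Py230 tumors differed from C57BL/6 glands in 0 keratins at 1 w p.i. by limma, against 0.00924% of all genes, with 27 keratins at an unadjusted p under 0.05. Without Py230 replicate 2 the count was 6. At 3 w p.i. 3 were called, against 19.7% of all genes, 12.8% higher and 6.90% lower. Krt23 was higher (0.81 ± 0.22, adjusted p = 0.0120), and Krt16 (-0.42 ± 0.14, adjusted p = 0.0310) and Krt19 (-0.31 ± 0.11, adjusted p = 0.0424) were lower. That count ran from 0 to 6 when single libraries were left out, and only Krt23 was called without the 7 libraries. Each of the 6 libraries moved it: 0 keratins were called without Py230 replicate 1 or gland replicate 1, 1 without Py230 replicate 2 or gland replicate 2 or 3, and 6 without Py230 replicate 3.

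At 6 w p.i. 8 keratins were called in Py230 tumors compared to C57BL/6 glands, 6 higher and 2 lower, against 47.6% of all genes, 28.8% higher and 18.7% lower. Luminal Krt19 scored 1.92, 1.64 and 1.73 in the glands, below the 2.09 to 2.16 of the Py230 tumors, a difference of 0.36 ± 0.11 (adjusted p = 0.00715). Krt8 scored 1.65, 1.39 and 1.46 in the glands, a difference of 0.37 ± 0.081 (adjusted p = 4.88e-04). Krt5 scored 1.74, 1.34 and 1.80 there and overlapped with the tumors (difference -0.32 ± 0.24, adjusted p = 0.279), and Krt14 scored 1.48, 1.15 and 1.47, above all tumor libraries but not called (difference -0.48 ± 0.23, adjusted p = 0.0820). Krt23 (0.84), Krt78 (0.61), Krt4 (0.41) and Krt42 (0.41) were the other 4 that rose, and Krt36 (-0.91) and Krt222 (-0.53) fell. Krt36 and Krt222 were therefore lower than in the glands in both tumor types. Without the 7 libraries 15 keratins were called, the 8 among them, against 39.2% of all genes.

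With the strain difference of the glands subtracted, the difference between 4T1 and Py230 tumors was called in 0 keratins at 1 w p.i. (0.305% of all genes, 3 keratins at an unadjusted p under 0.05), in 1 at 3 w p.i. (9.15%, 2.64% higher) and in 6 at 6 w p.i. (25.5%, 11.1% lower). The 6 were all lower in 4T1. Krt19 differed by -1.34 ± 0.15 (adjusted p = 1.74e-07), Krt5 by -1.27 ± 0.33 (adjusted p = 0.00592) and Krt17 by -1.22 ± 0.27 (adjusted p = 0.00149). Krt23 (-1.08), Krt78 (-0.78) and Krt4 (-0.61) completed the list. Krt8 gave -0.13, with a 95% interval from -0.37 to 0.10. The 1 keratin at 3 w p.i. was Krt80 (0.72 ± 0.22, adjusted p = 0.0356), and this count ran from 0 to 2 when single libraries were left out, with 10 libraries moving it: 2 keratins were called without 4T1 replicate 3 or Py230 replicate 3, and 0 without 4T1 replicate 1 or 2, Py230 replicate 1 or 2, BALB/c gland replicate 1 or 2 or C57BL/6 gland replicate 2 or 3. At 1 w p.i. the count was 1 without 4T1 replicate 2. For 6 w p.i. it was 5 to 7 when single libraries were left out and 8, the 6 among them, without the 7 (16.8% of all genes).

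The course over the weeks was followed within each tumor type. From 1 to 3 w p.i. 0 keratins were called in 4T1 tumors by limma, against 0.628% of all genes, with 7 at an unadjusted p under 0.05, and 2 called without 4T1 replicate 1 of 3 w p.i. Krt19 (-0.33 ± 0.11, adjusted p = 0.133) and Krt8 (-0.26 ± 0.081, adjusted p = 0.127) were among the 7, and both, as well as Krt5 (-0.33), Krt7 (-0.15), Krt17 (-0.30) and Krt18 (-0.17), scored lower at 3 than at 1 w p.i. in all libraries. The other 5 of the 7 were hair-type keratins. From 3 to 6 w p.i. 10 were called, 5 higher and 5 lower, against 53.0% of all genes, 34.2% higher and 18.8% lower. Of the calls over all genes 64.6% were higher, and 48.6% under cyclic loess scaling. The falls were Krt5 (-1.26 ± 0.24, adjusted p = 7.88e-05), Krt17 (-0.79 ± 0.19, adjusted p = 0.00125), Krt19 (-0.71 ± 0.11, adjusted p = 4.31e-06), Krt14 (-0.65 ± 0.23, adjusted p = 0.0175) and Krt36 (-0.64 ± 0.21, adjusted p = 0.0134). Krt7 rose by 0.63 ± 0.13 (adjusted p = 3.17e-04), Krt8 by 0.38 ± 0.081 (adjusted p = 3.03e-04) and Krt18 by 0.32 ± 0.085 (adjusted p = 0.00276). Of the 5 simple keratins, 3 thus rose, Krt19 fell and Krt20 was not called (adjusted p = 0.0578). The other 2 rises, Krt39 and Krt74, were both lost under quantile scaling, with differences of 0.18 and -0.030 (adjusted p = 0.129 and 0.584), and without the 7 libraries 16 keratins were called, the 10 among them, against 47.2% of all genes.

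In Py230 tumors both intervals held calls. From 1 to 3 w p.i. 21 keratins were called, 1 higher and 20 lower, against 20.0% of all genes, 12.8% higher and 7.17% lower. Of the calls over all genes 64.1% were higher, and 53.4% under cyclic loess scaling. Of the 20, 18 were hair-type keratins (12 of 15 of hair shaft and nail and 6 of 9 of inner root sheath and companion layer), and the others were Krt17 (-0.59 ± 0.19) and Krt80 (-0.50 ± 0.15). Krt23 was the 1 that rose (0.67 ± 0.22). Py230 replicates 1 and 3 of 1 w p.i. are among the 7 libraries with skin genes. Without the 7, 0 keratins were called by limma, and the count was 4 and 6 without replicate 1 and replicate 3 of that week. It was also 4 and 9 without replicates 1 and 2 of 3 w p.i. From 3 to 6 w p.i. 4 keratins rose and 0 fell, against 6.03% of all genes called and 3.96% called higher. They were Krt7 (0.45 ± 0.13, adjusted p = 0.0430), Krt19 (0.39 ± 0.11, adjusted p = 0.0258), Krt4 (0.39 ± 0.072, adjusted p = 0.00105) and Krt78 (0.72 ± 0.18, adjusted p = 0.0158). Without replicate 1 or 2 of 6 w p.i. 1 was called, and without replicate 3 of 3 w p.i. 2. Krt19 thus rose in Py230 tumors over the weeks in which it fell in 4T1 tumors.

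The change of the 4T1 minus Py230 difference was tested as an interaction. From 3 to 6 w p.i. it was called in 5 keratins, all lower, against 26.7% of all genes called and 8.88% called lower. Krt5 changed by -1.48 ± 0.33 (adjusted p = 0.00177), Krt17 by -1.28 ± 0.27 (adjusted p = 0.00107), Krt19 by -1.10 ± 0.15 (adjusted p = 5.93e-06), Krt6a by -0.94 ± 0.34 (adjusted p = 0.0416) and Krt4 by -0.52 ± 0.10 (adjusted p = 4.72e-04). Krt23 was not among them, its difference being -1.19 at 3 and -1.09 at 6 w p.i. From 1 to 3 w p.i. Krt80 (0.70 ± 0.22, adjusted p = 0.0293) and the hair keratin Krt36 (0.89 ± 0.30, adjusted p = 0.0431) were called, 2 of 46, both higher, against 15.3% of all genes called and 4.89% called higher. Neither was called without the 7 libraries, and single libraries took this count to 0 (without 4T1 or Py230 replicate 1 of 1 w p.i., 4T1 replicate 2 of 3 w p.i., or Py230 replicate 1 or 2 of 3 w p.i.) or 1 (without 4T1 replicate 3 or Py230 replicate 2 or 3 of 1 w p.i., or 4T1 replicate 3 of 3 w p.i.).

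Because keratins work in type I and type II pairs, the score of the type II member minus that of the type I member was followed in each library, as a description without a test. Krt8 minus Krt18 ran from -0.26 to -0.14 in the 4T1 libraries of 6 w p.i. and from -0.44 to -0.011 in the other 33 libraries. For this pair the 4T1 libraries of 6 w p.i. therefore lay within the range of the others. Groups did differ, with -0.42 to -0.40 in C57BL/6 glands and -0.13 to -0.011 in Py230 tumors at 6 w p.i. Krt5 minus Krt14 ran from -0.94 to -0.14 in the 4T1 libraries of 6 w p.i. and from 0.045 to 0.55 in the other 33, without overlap. Krt7 minus Krt19 ran from 0.28 to 0.86 there and from -0.96 to -0.54 in the other 33. Krt8 minus Krt19 ran from 0.88 to 1.03 against -0.35 to 0.19. For Krt5 minus Krt17 the ranges were 0.0071 to 0.60 against 0.28 to 1.21, with overlap. For Krt1 minus Krt10 they were -1.50 to -0.34 against -1.69 to -0.42, also with overlap. Within the 4T1 tumors of 6 w p.i. Krt5 was thus lower beside Krt14, and Krt19 lower beside Krt7 and Krt8, than in each other library of the study.

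Hair-type keratins, those of the inner root sheath, companion layer, hair shaft and nail, varied between the libraries of a group. Of these 24 genes at least 10 scored above -1 in 7 libraries, 5 of which are among the 7 with skin genes, and at most 3 did in 26. Outside the 7 with skin genes were 4T1 replicate 3 (14 genes, mean -0.96) and BALB/c gland replicate 3 (11 genes, mean -0.98), both of 1 w p.i. Both had a skin gene mean of -1.20 and stayed in the fits without the 7 libraries. The mean of the 24 genes ran from -1.84 to 0.25 over the 36 libraries. It was highest in Py230 replicate 1 of 1 w p.i. (0.25), BALB/c gland replicate 2 of 6 w p.i. (-0.045), C57BL/6 gland replicate 3 of 3 w p.i. (-0.23), Py230 replicate 3 of 1 w p.i. (-0.33) and 4T1 replicate 2 of 1 w p.i. (-0.40). Krt71 was the highest hair-type keratin in each of these 5 libraries. Krt71 scored 1.97, 0.14 and 1.11 in Py230 and -1.17, 1.25 and 0.44 in 4T1 tumors at 1 w p.i., but -1.32, -1.16 and -1.12 and -1.42, -1.45 and -1.45 at 3 w p.i. Within groups, the median SD was 0.628 for the 9 inner root sheath and companion keratins and 0.571 for the 15 of hair shaft and nail, against 0.134 for the 5 simple keratins, 0.296 for the 4 basal keratins and 0.0750 for all genes.

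Not all hair-type keratins reached a high score in these libraries. Krt39, Krt40, Krt74 and Krt84 stayed at the bottom of the scale, with highest scores of -1.60, -1.72, -2.00 and -1.65 over the 36 libraries. Krt40 and Krt74 were nevertheless highest in Py230 replicate 1 of 1 w p.i. and Krt84 in C57BL/6 gland replicate 3 of 3 w p.i. Krt39 was highest in 4T1 replicate 3 of 6 w p.i. Krt36, a hair shaft keratin, had a pattern of its own. It was the highest hair-type keratin in most glands and scored between -0.65 and -0.056 in all 18 of them, whether or not the other hair keratins were high. At 6 w p.i. it scored -1.27, -1.25 and -1.29 in 4T1 and -1.38, -1.28 and -1.23 in Py230 tumors, against -0.056, -0.17 and -0.37 in BALB/c and -0.42, -0.57 and -0.16 in C57BL/6 glands. Both tumor types were below their glands without overlap, by -1.07 ± 0.21 (adjusted p = 1.22e-04) and -0.91 ± 0.21 (adjusted p = 9.71e-04).

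Epidermal keratins of the suprabasal layers marked other libraries. Krt1 and Krt10, the pair of the spinous layer, and Krt77, a keratin of eccrine ducts and skin, had a mean score of 1.08 in C57BL/6 gland replicate 3, 0.94 in BALB/c gland replicate 2 and 0.42 in 4T1 replicate 3, all of 6 w p.i. In the other 33 libraries the mean ran from -1.45 to -1.16. Krt10 scored -0.35, 2.00 and -0.34 in BALB/c glands, -0.38, -0.46 and 1.36 in C57BL/6 glands, -0.33, -0.26 and 0.73 in 4T1 and -0.40, -0.46 and -0.46 in Py230 tumors at 6 w p.i. Krt1 scored -1.24, -1.77 and 0.39 in 4T1 and -1.42, -1.35 and -1.27 in Py230 tumors, and neither gene was called between the tumors in any week. Only the BALB/c gland replicate 2 was high in both hair-type and epidermal keratins. The 10 skin genes that are not keratins were high in several of the libraries high in hair-type or epidermal keratins. Their mean was 0.56 in BALB/c gland replicate 2 and 0.019 in C57BL/6 gland replicate 3 of 6 w p.i. It was -0.42 in Py230 replicate 1 of 1 w p.i. and -0.59 in 4T1 replicate 3 of 6 w p.i. The part of skin tissue in these libraries was not tested.

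**Figure D4:**
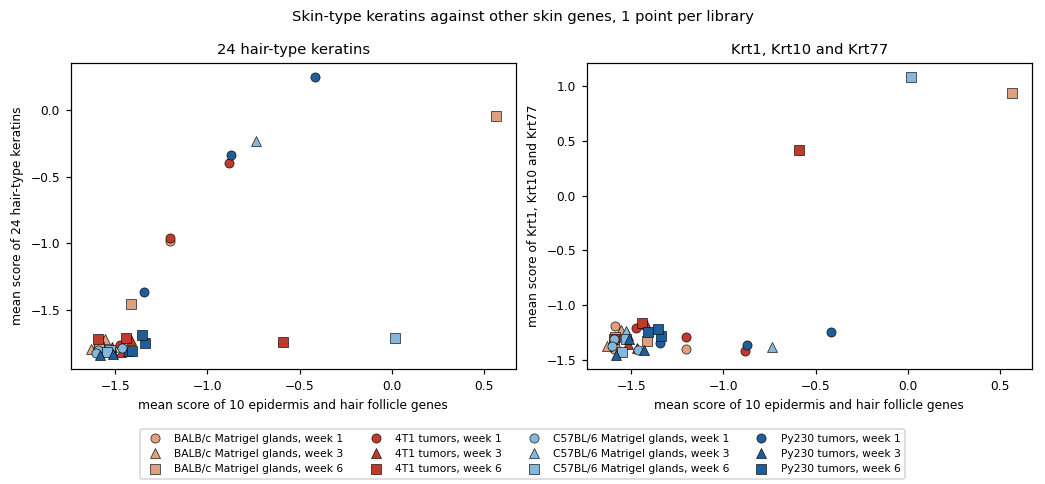
Mean score of the 24 hair-type keratins (left) and of Krt1, Krt10 and Krt77 (right) against the mean score of 10 epidermis and hair follicle genes that are not keratins, with 1 point per library, colored by group and shaped by week. Most of the 36 libraries sit at the lower left, and the libraries high in hair keratins are, apart from 1 BALB/c gland, not those high in epidermal keratins.

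Keratin filaments are anchored at desmosomes and hemidesmosomes, and 20 genes of these anchors and of filament regulation were followed beside them. In 4T1 compared to Py230 tumors 2 were called at 1 w p.i., both lower, 8 at 3 w p.i., all lower, and 13 at 6 w p.i., 5 higher and 8 lower, against 19.4%, 30.3% and 40.8% of all genes called at these weeks. The smallest p-values at 1 w p.i. were those of the plakins Dst (-0.32 ± 0.066, adjusted p = 0.00172) and Evpl (-0.32 ± 0.10, adjusted p = 0.0352). At 3 w p.i. they were those of the desmosomal cadherins Dsc2 (-1.09 ± 0.15, adjusted p = 6.76e-06) and Dsg2 (-0.55 ± 0.088, adjusted p = 4.36e-05). The hemidesmosomal collagen Col17a1 led at 6 w p.i. with -1.47 ± 0.15 (adjusted p = 1.64e-08), followed by plakoglobin, Jup, with -0.42 ± 0.080 (adjusted p = 1.08e-04). The median over the 20 was -0.17, -0.15 and -0.062 at the 3 weeks, and that over all genes 0.0055, -0.011 and 0.036.

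Of 8 intermediate filament genes that are not keratins, 0 were called at 1 w p.i., 4 at 3 w p.i. (1 higher, 3 lower in 4T1) and 5 at 6 w p.i. (3 higher, 2 lower), against the same shares of all genes (19.4%, 30.3% and 40.8%). Vim, the filament of mesenchymal cells, differed by 0.34 ± 0.076 at 3 w p.i. (adjusted p = 0.00140) and 0.62 ± 0.076 at 6 w p.i. (adjusted p = 1.90e-07). Gfap, the filament of glia, differed by -0.51 ± 0.094 and -0.81 ± 0.094 at these weeks (adjusted p = 2.04e-04 and 9.92e-08). At 1 w p.i. the smallest adjusted p-values were those of Lmnb1 (0.0761) and Vim (0.162). The median over the 8 was -0.048, 0.0088 and -0.016 at the 3 weeks.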

How the data were processed

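RNA from 36 tumor and gland samples was sequenced by the authors in stranded, paired-end libraries, mapped to mm10 with STAR, counted with summariseOverlaps and normalized with DESeq2, whose versions are not given in the sources used here. The deposited expression table held scores, which carry no counts, so depth per library is unknown and no interval for counting error was made. The authors' mean normalized count over all libraries was read from the deposited comparison tables, together with gene symbols. The fold changes and p-values of the authors' comparisons in these tables were not used.

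The members and lists were chosen with earlier results of these data known. A linear model with 1 mean per group was fitted to all genes and libraries with limma 3.58.1 in R 4.3.3 (empirical Bayes with trend and robust settings) with Benjamini-Hochberg adjustment over all genes. Since the values proved to be scores, no count test was run. Simulated data took each gene's spread within all 12 groups and were tested as 4T1 against Py230 tumors at week 1. Of 100 genes shifted by 0.5 score units 85% were called, and of 100 shifted by 1 unit 95%, with 7 false calls among 21650 genes. The shifted genes were drawn from all genes, whose median within-group SD was 0.0750, against 0.449 for the 46 keratins. No rate was made for keratins alone, so these rates do not tell how often a keratin difference of that size would be called. Values in every library were given for 12 keratins fixed by name, and other keratins were named where called between the tumor types. The 2 desmosomal or other filament genes with the smallest p per week were named. Promoters came from RefSeq. Figures were drawn with matplotlib 3.10.9. Alternatives changed the samples fitted, scaling, moderation, a minimum mean count of 10, a replicate block and single libraries.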

Additional observations from a re-analysis of the deposited data

Results flagged for a closer look

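A difference between effects was tested for 2 kinds of contrast, and 14 keratin results passed. With the strain difference of the glands subtracted, the 4T1 minus Py230 difference was called in Krt80 at 3 w p.i. (0.72), and at 6 w p.i. in Krt19 (-1.34), Krt5 (-1.27), Krt17 (-1.22), Krt23 (-1.08), Krt78 (-0.78) and Krt4 (-0.61), all in score units. Between weeks, the 4T1 minus Py230 difference changed from 1 to 3 w p.i. in Krt36 (0.89) and Krt80 (0.70), and from 3 to 6 w p.i. in Krt5 (-1.48), Krt17 (-1.28), Krt19 (-1.10), Krt6a (-0.94) and Krt4 (-0.52). Single outlying libraries were not tested for within the groups of 3.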

How the results depend on the processing

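Over 21 counts of called keratins and their alternatives, 228 of 303 stayed within 1.5 times, and of 468 alternative differences of the 12 keratins fixed by name 428 kept direction and side of the threshold. Fitting only the groups compared gave, for 4T1 against Py230 tumors at the 3 weeks in turn, 0, 1 and 24 called keratins (2, 3 and 10 with all libraries); for 4T1 tumors against glands at 1 w p.i. 0 (1); for Py230 tumors against glands at 3 and 6 w p.i. 0 (3) and 18 (8); for the strains at 3 w p.i. 2 (1); for the strain-subtracted difference at 3 w p.i. 0 (1); for 4T1 from 3 to 6 w p.i. 17 (10); for Py230 from 1 to 3 and 3 to 6 w p.i. 0 (21) and 2 (4); and for the change from 1 to 3 w p.i. 0 (2). Quantile scaling gave 1 for Py230 tumors against glands at 3 w p.i. Without the 7 libraries the counts were 0 for the tumor types at 1 w p.i., 1 and 15 for Py230 tumors against glands at 3 and 6 w p.i., 0 for the strains at 3 w p.i., 16 for 4T1 from 3 to 6 w p.i., 0 for Py230 from 1 to 3 w p.i., and 0 and 9 for the change in the earlier and later interval. The cause of these shifts was not tested.

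Leaving out single libraries gave 0 to 5, 1 to 3 and 8 to 11 calls between the tumor types at the 3 weeks in turn, 0 to 2, 0 to 1 and 8 to 16 for 4T1 and 0 to 6, 0 to 6 and 8 to 11 for Py230 tumors against their glands, 0 to 1 for the strains at each week, and 0 to 1, 0 to 2 and 5 to 7 for the strain-subtracted difference. It gave 0 to 2 and 8 to 10 for 4T1 over the earlier and later interval, 4 to 22 and 1 to 3 for Py230, and 0 to 2 and 4 to 7 for the change of their difference.

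Uncalled differences that changed sign in single fits were, at 1 w p.i., Krt8 (-0.024 under quantile scaling, -0.056 without the 7 libraries, -0.035 to 0.033 leaving out single libraries), Krt79 (0.00018 under quantile scaling, -0.095 to 0.081 leaving out single libraries) and Krt6a (0.019 without the 7). At 3 w p.i. they were Krt1 (0.0015 under quantile scaling, -0.078 to 0.073), Krt10 (0.0079 under cyclic loess, -0.12 to 0.14), Krt79 (-0.12 to 0.17), Krt5 (-0.11 to 0.28), Krt14 (-0.087 to 0.29) and Krt17 (-0.045 to 0.17). At 6 w p.i. they were Krt18 (-0.0070 under quantile scaling, -0.0024 without the 7, -0.0024 to 0.15), Krt1 (-0.16 without the 7, -0.16 to 0.92), Krt7 (-0.23 to 0.24) and Krt15 (-0.61 to 0.051).

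The replicate numbers were not used to pair the samples in the main fit. With group means removed, 27 correlations between same-numbered libraries ran from -0.47 to 0.52, and 7 were over 0.1. Libraries with different numbers were not compared, so these values cannot decide whether the numbers pair the samples. With a replicate block 3 keratins were called between the tumor types at 1 w p.i. (2 without it) and 5 in Py230 tumors from 3 to 6 w p.i. (4 without it), and the block changed no other count. Depth is unknown from scores, so low keratins such as Krt39 and Krt74 cannot be judged by their reads.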
